A study of Homo sapiens with 16 samples.

Results

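TRIM proteins are a large family of ubiquitin ligases and adaptors, and 8 of their genes were followed across 16 libraries of HEK293, a human line of embryonic kidney origin that was grown here in Free-style medium. The members were TRIM5, TRIM14, TRIM21, TRIM22, TRIM25, TRIM26 and TRIM38, which act in antiviral defence, and TRIM28, a constitutively expressed relative. They were chosen by gene symbol among 20802 gene targets, and all 8 were among the 12704 genes with enough reads to be tested. Receptors were of the wild-type form or a form labelled optimized, in a series on the geometry between receptor-bound Janus kinases. Each genotype was untreated or was given 100 nM of a ligand: the type I interferon omega (IFNw), the type III interferon lambda 3 (IFNL3), or H11, a variant of IFNL3 with the label high-affinity. Exposure is stated as 15 min and time as 24 hr, and how these relate is not. With 2 libraries in each of 8 groups, and replicates called biological but not said to be separate cultures, p-values measure the spread between these libraries, which may be technical. No mock-treated group was among the libraries, so handling and ligand cannot be told apart. Whether the optimized cells were 1 clone was not stated in the sources used here.

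Most TRIM proteins join a RING domain, which transfers ubiquitin, to B-box and coiled-coil domains and a variable C-terminal end that binds the target. Interferons signal through Janus kinases and STAT proteins to the transcription factor complex ISGF3. That complex binds a short promoter element called the interferon-stimulated response element (ISRE), and many antiviral TRIM genes are among its targets. Some TRIM proteins attack viruses directly. Others set the strength of the sensing pathway that runs from RIG-I (gene DDX58) through MAVS to the IRF transcription factors.

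The start sites of the members were searched for the core of the ISRE, taken as GAAA, any 2 bases and GAAA on either strand. Promoter windows of 250 bases before to 50 bases from the start were taken from RefSeq on GRCh38.p14, which held 6 of the 8 members. TRIM22 and TRIM28 were not among them. The core was found in 4 of the 6 windows, against 996 of all 27305 windows (3.65%) and 264 of 9323 windows of genes tested (2.83%). Overlapping matches occurred in TRIM21 and TRIM26. The stretches that hold it are printed on the strand of each gene, 5′ to 3′, with each GAAA (TTTC where the match is on the opposite strand) in capitals. Each of the 4 genes lies on the minus strand of its chromosome.
TRIM5, chr11:5685075-5685134: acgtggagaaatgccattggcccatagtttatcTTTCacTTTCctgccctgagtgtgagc
TRIM14, chr9:98119223-98119282: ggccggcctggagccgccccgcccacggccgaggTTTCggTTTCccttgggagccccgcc
TRIM21, chr11:4393660-4393689: agcgGAAActGAAAgtGAAAtagggagctg
TRIM26, chr6:30213567-30213626: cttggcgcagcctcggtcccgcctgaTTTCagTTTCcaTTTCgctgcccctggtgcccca

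In TRIM5 the core lay from -27 to -18 and in TRIM14 from -26 to -17, counted from the base before the start as -1. TRIM21 had its overlapping pair just inside the transcript, at 18 to 27 and 24 to 33. The TRIM26 pair lay farther upstream, from -194 to -185 and from -188 to -179. In the TRIM25 and TRIM38 windows no such letters were found. The interferon gamma-activated element GAS (TTC, any 3 bases and GAA, which reads the same on both strands) was found in none of the 6 windows, against 2152 of all windows (7.88%). Of the 9323 windows of genes tested, 570 held GAS (6.11%). These matches describe letters in a window, and the files hold no measurement of binding. A relation between matches and responses was not tested.

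Library totals lay between 5331203 reads (optimized, untreated, replicate 2) and 9822088 reads, and the members had between 37 and 8295 reads in a library. Over all genes, r of log CPM between replicates was lowest for untreated optimized cells (0.966) and 0.983 to 0.986 in the rest. In the 4 libraries of wild-type cells given H11 or IFNL3, levels over all genes rose with transcript length (Spearman's rho of the deviation from the gene's mean 0.369 to 0.405 across genes). Their 50 top genes held 17.7% to 18.5% of reads, and those of the other 12 libraries 23.7% to 28.7%. In the IFNw libraries of both genotypes and the optimized H11 libraries, rho lay between -0.428 and -0.397. This trend moves with the groups compared, and for member calls that change when it is modelled the values with it as an offset are given beside the result or with the genotype results. Of the 6 HEK293 markers, VIM was at 271 to 542 and KRT18 at 30.1 to 65.8 CPM (reads scaled to library size with edgeR's TMM factors) in all libraries, while NEFL and NEFM stayed under 0.87 CPM. Among blood markers, LYZ was at 0, PTPRC, CD3E and HBB had at most 1 read and CD14 at most 9 reads in a library. The 4 hepatocyte markers summed to at most 0.536 CPM, with ALB, TTR and SERPINA1 at 0. Of the 4 fibroblast markers, COL1A1 lay between 7.93 and 20.6 CPM, COL1A2 and LUM were at 0 and DCN had at most 1 read.

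All 7 antiviral members rose in wild-type cells with each of the 3 ligands, and in optimized cells with IFNw and H11, while TRIM38 did not pass the test in optimized cells with IFNL3. In bulk cultures fewer responding cells and less RNA per cell cannot be told apart. Changes are log2 fold changes of TMM-scaled counts from 1 edgeR quasi-likelihood fit of the 16 libraries, called at a Benjamini-Hochberg adjusted p under 0.05 over all genes tested. In wild-type cells, 7 of 8 members were called higher with IFNw, where 16.6% of all genes tested were. With H11 and with IFNL3 all 8 were called higher, where 18.2% and 18.7% of genes were. In optimized cells, 7 of 8 were called higher with IFNw (17.5% of genes), 7 with H11 (17.2%) and 6 with IFNL3 (7.26%). No member was called lower in any of these 6 responses. The median log2 fold change of the 7 antiviral members lay between 1.39 (wild-type, IFNw) and 1.86 (wild-type, IFNL3), and that of all genes between -0.05 and -0.01.

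**Figure D1:**
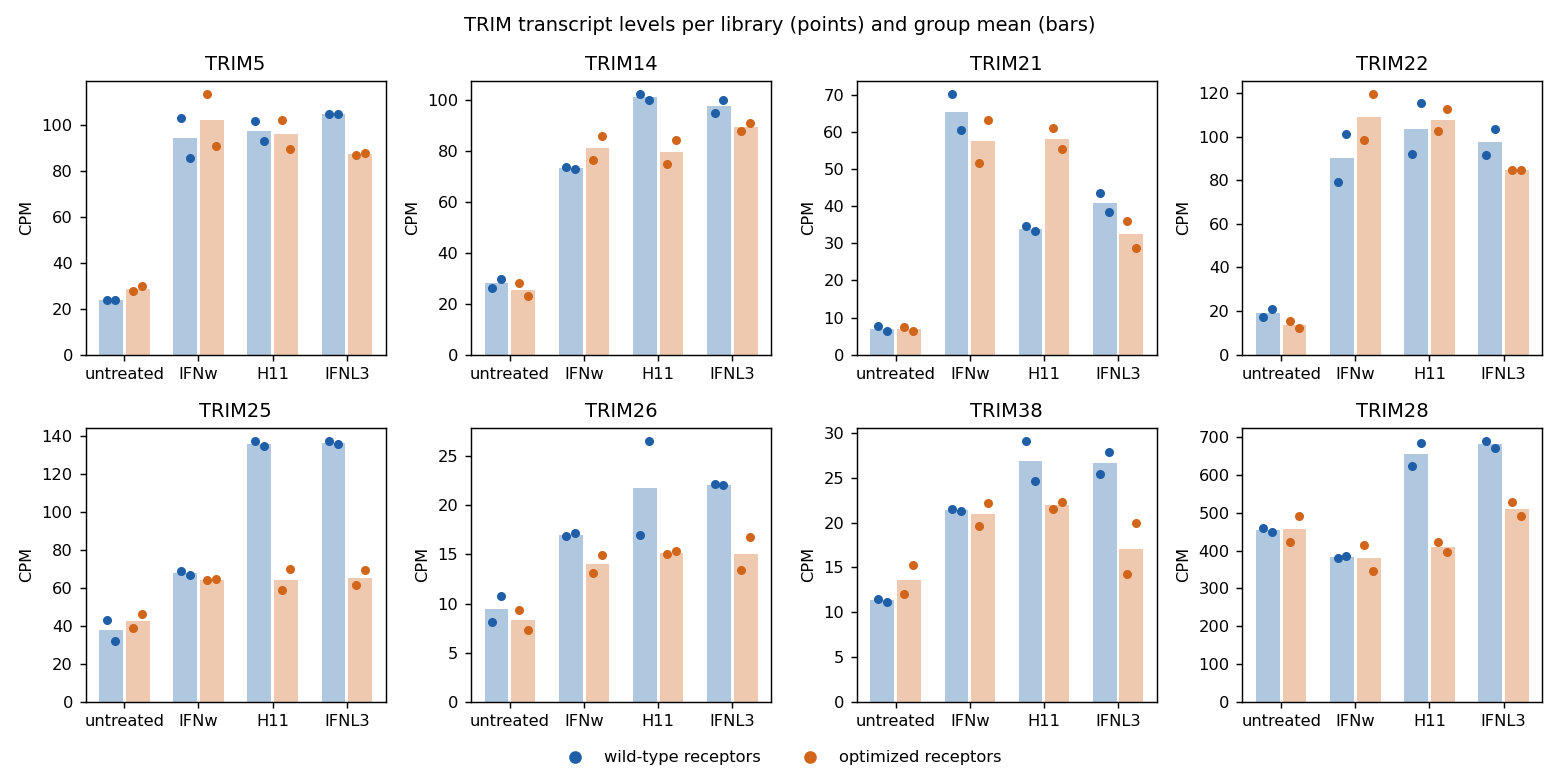
TMM-scaled CPM of each TRIM gene (vertical axis, from 0, a different scale in each panel) in untreated, IFNw, H11 and IFNL3 groups. Points are single libraries, bars are means of 2, blue is wild-type and orange optimized; TRIM25 stands near 136 CPM in the wild-type groups with H11 and IFNL3 and at or under 70.1 CPM in each other library, and TRIM21 is highest in the groups with IFNw and in optimized cells with H11.

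TRIM5, TRIM22 and TRIM21 act on viruses directly, and they had the 3 largest changes of the 8 in each response except optimized cells with IFNL3, where TRIM14 exceeded TRIM5. TRIM5 binds the capsid of incoming retroviruses. In wild-type cells its level was 24.0 and 23.7 CPM untreated, 103 and 85.5 with IFNw, 102 and 92.9 with H11, and 105 and 105 with IFNL3. The optimized libraries were at 27.6 and 29.9 CPM untreated, 114 and 90.8 with IFNw, 102 and 89.7 with H11, and 87.0 and 87.9 with IFNL3. Every treated library lay above every untreated one, and the treated groups of the 2 genotypes overlapped except with IFNL3. The log2 fold changes were between 1.61 ± 0.15 (SE; optimized, IFNL3) and 2.14 ± 0.15 (wild-type, IFNL3), which is 3.05-fold to 4.40-fold.

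TRIM22, which restricts several viruses in part by silencing their transcription, lies beside TRIM5 on chromosome 11. Its level in wild-type cells was 17.1 and 21.0 CPM untreated, 79.2 and 101 with IFNw, 91.8 and 116 with H11, and 91.5 and 103 with IFNL3. Optimized libraries were at 15.3 and 12.3 CPM untreated, 98.4 and 120 with IFNw, 103 and 113 with H11, and 84.7 and 84.9 with IFNL3. Treated and untreated libraries did not overlap in either genotype. The untreated optimized libraries were both under the wild-type ones, by 0.46 ± 0.19 on the log2 scale, which was not called (edgeR quasi-likelihood, Benjamini-Hochberg adjusted p 0.78). The rises were 2.24 ± 0.18, 2.44 ± 0.18 and 2.35 ± 0.18 (log2, wild-type with IFNw, H11 and IFNL3) and 2.97 ± 0.19, 2.95 ± 0.19 and 2.61 ± 0.18 (optimized, same order). The RefSeq gene models of TRIM5, TRIM6 and TRIM34 overlap beside TRIM22. TRIM5 and TRIM22 were each counted at a single target (AMPL17282916 and AMPL27786133). The positions of these targets and the use of strand are not stated in the sources used here. Whether reads of these genes are fully separate therefore cannot be told. TRIM6 was not called in any of the 6 responses (log2 fold changes from 0.12 to 0.53), and TRIM34 had too few reads to be tested.

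TRIM21 is a cytosolic antibody receptor that sends antibody-coated virus to the proteasome. Its wild-type level was 7.59 and 6.38 CPM untreated, 70.3 and 60.5 with IFNw, 34.6 and 33.3 with H11, and 43.5 and 38.4 with IFNL3. Its optimized level was 7.43 and 6.48 CPM untreated, 51.8 and 63.3 with IFNw, 61.0 and 55.4 with H11, and 36.1 and 28.7 with IFNL3. Untreated libraries of the genotypes overlapped, and in wild-type cells H11 stood with IFNL3, whereas in optimized cells it stood with IFNw. The rise with IFNw was 9.36-fold in wild-type cells (log2 3.23 ± 0.18) and 8.18-fold in optimized cells (3.03 ± 0.19). With H11 it was 4.86-fold in wild-type cells (2.28 ± 0.18) and 8.28-fold in optimized cells (3.05 ± 0.19), and with IFNL3 5.86-fold (2.55 ± 0.18) and 4.61-fold (2.20 ± 0.19).

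The next 2 members act on the RIG-I pathway. TRIM25 attaches ubiquitin chains that help RIG-I signal to MAVS. In wild-type cells its level was 43.3 and 32.3 CPM untreated, 69.2 and 66.7 with IFNw, 138 and 135 with H11, and 138 and 136 with IFNL3. Its optimized level was 39.0 and 46.2 CPM untreated, 64.4 and 64.5 with IFNw, 58.8 and 70.1 with H11, and 61.6 and 69.3 with IFNL3. The 4 wild-type libraries with H11 or IFNL3 lay far above the other 12, and the other 8 treated libraries lay between 58.8 and 70.1 CPM. In wild-type cells TRIM25 rose 3.61-fold with H11 and, with IFNL3, 3.62-fold (log2 1.85 ± 0.15 and 1.86 ± 0.15), but 1.80-fold with IFNw (0.85 ± 0.15). In optimized cells the 3 ligands gave 0.60 ± 0.15, 0.60 ± 0.15 and 0.62 ± 0.15 (IFNw, H11 and IFNL3).

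TRIM14 lacks a RING domain and works as an adaptor at MAVS. Its wild-type level was 26.3 and 29.6 CPM untreated, 73.7 and 72.9 with IFNw, 102 and 99.8 with H11, and 94.9 and 100.1 with IFNL3. Its optimized level was 28.2 and 22.9 CPM untreated, 76.4 and 86.0 with IFNw, 74.7 and 84.1 with H11, and 87.9 and 91.1 with IFNL3. Treated libraries lay above all untreated ones, and within wild-type cells both IFNw libraries lay under all 4 libraries with H11 or IFNL3. The log2 rises were 1.39 ± 0.14, 1.85 ± 0.14 and 1.80 ± 0.14 in wild-type cells (IFNw, H11 and IFNL3) and 1.66 ± 0.14, 1.62 ± 0.14 and 1.80 ± 0.14 in optimized cells.

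TRIM26 and TRIM38 are described as brakes on sensing, TRIM26 through turnover of nuclear IRF3 and TRIM38 through turnover of TAB2 and other adaptors. TRIM26 in wild-type cells was at 8.14 and 10.8 CPM untreated, 16.8 and 17.2 with IFNw, 17.0 and 26.5 with H11, and 22.2 and 22.1 with IFNL3. The optimized libraries were at 9.36 and 7.35 CPM untreated, 13.1 and 15.0 with IFNw, 15.0 and 15.3 with H11, and 13.4 and 16.7 with IFNL3. No treated library overlapped an untreated one, though the wild-type H11 pair was wide apart. TRIM38 in wild-type cells was at 11.5 and 11.2 CPM untreated, 21.6 and 21.3 with IFNw, 29.1 and 24.6 with H11, and 25.4 and 27.9 with IFNL3. Its optimized libraries were at 12.01 and 15.2 CPM untreated, 19.7 and 22.2 with IFNw, 21.5 and 22.3 with H11, and 14.3 and 20.0 with IFNL3. Only the optimized IFNL3 pair of TRIM38 overlapped its untreated pair, and that rise was 0.34 ± 0.19 on the log2 scale (95% interval -0.06 to 0.75; edgeR quasi-likelihood, Benjamini-Hochberg adjusted p 0.26).

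The other log2 rises of TRIM26 lay between 0.73 ± 0.24 and 1.22 ± 0.22 and those of TRIM38 between 0.64 ± 0.19 and 1.25 ± 0.19. Several of these calls rest on single libraries or on the shared estimate of spread. Fitted on the compared groups alone, TRIM25, TRIM26 and TRIM38 lost their calls in optimized cells with IFNw and H11, and TRIM25 and TRIM26 with IFNL3, at nearly the same fold changes (edgeR, adjusted p 0.056 to 0.18). With 1 library left out, TRIM26 lost its call in optimized cells without untreated replicate 2 (0.58, 0.69 and 0.68 for IFNw, H11 and IFNL3), without IFNw replicate 2 (0.66) or IFNL3 replicate 2 (0.67). In wild-type cells with IFNw it lost the call without untreated replicate 1 (0.66). TRIM38 lost its optimized calls without untreated replicate 1 (0.46 for IFNw and 0.53 for H11) or IFNw replicate 2 (0.58). TRIM25 lost them without H11 replicate 2 (0.51) and without IFNL3 replicate 2 (0.54).

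TRIM28 binds KRAB zinc finger proteins and recruits silencing enzymes to chromatin, and it is not known as an interferon target. In wild-type cells its level was 461 and 448 CPM untreated, 379 and 385 with IFNw, 626 and 686 with H11, and 690 and 673 with IFNL3. Optimized libraries held 424 and 493 CPM untreated, 415 and 346 with IFNw, 422 and 397 with H11, and 529 and 493 with IFNL3. The 4 wild-type libraries with H11 or IFNL3 were the highest, as for TRIM25. It rose by 0.53 ± 0.12 with H11 and 0.58 ± 0.12 with IFNL3 in wild-type cells (edgeR quasi-likelihood, Benjamini-Hochberg adjusted p 0.002 and 0.0009). With IFNw it was -0.25 ± 0.12 in wild-type and -0.27 ± 0.12 in optimized cells (adjusted p 0.12 and 0.091 in the same edgeR fit), neither of them called. With the transcript length trend as an offset, the optimized value became -0.33 and passed (adjusted p 0.046), as it did at -0.37 without untreated optimized replicate 1 (0.021).

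**Figure D2:**
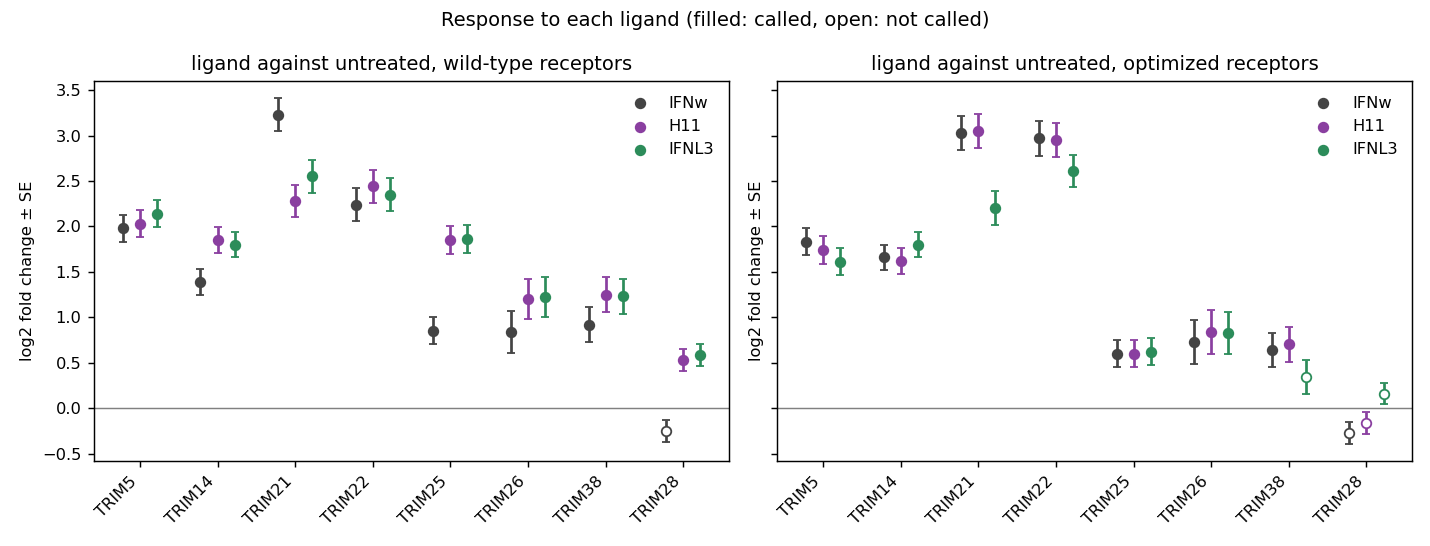
Log2 fold change of each TRIM gene against untreated cells of its genotype, with SE bars, for IFNw, H11 and IFNL3; filled points were called and open points were not. TRIM21 with IFNw reaches 3.23 in wild-type cells, TRIM25 with H11 and IFNL3 is at 1.85 and 1.86 in wild-type cells and at 0.60 and 0.62 in optimized cells, and TRIM28 lies on both sides of 0.

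No member was called between the receptor genotypes without a ligand or with IFNw. Between untreated groups 0 of 8 members were called, and 0.0% of genes were. In that comparison 1 member (TRIM22) and 705 genes had an unadjusted p under 0.05 in edgeR, and DESeq2 called 0 genes. With IFNw, 0 of 8 members and 0.0% of genes differed between genotypes (0 members and 440 genes at an unadjusted p under 0.05 in edgeR, and 0 genes by DESeq2). The intervals of that difference reached from -0.75 (lower limit for TRIM26) to 0.62 (upper limit for TRIM22) on the log2 scale. For each member, a difference inside its own interval was not excluded. The response to IFNw, taken as optimized minus wild-type, also had 0 of 8 members and 0.0% of genes called, with TRIM22 and 633 genes at an unadjusted p under 0.05 in edgeR and 0 genes by DESeq2. For TRIM22 it was 0.73 ± 0.25 (95% interval 0.20 to 1.26; edgeR, adjusted p 0.87).

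With H11, 4 of 8 members differed between genotypes, where 51.7% of all genes did, and with IFNL3, 3 of 8 did, where 33.2% of genes did. TRIM25 was lower in optimized cells by 2.11-fold with H11 (log2 -1.08 ± 0.15) and by 2.09-fold with IFNL3 (-1.06 ± 0.14). TRIM28 was lower as well, at -0.68 ± 0.12 and -0.42 ± 0.12. TRIM21 was 1.72-fold higher in optimized cells with H11 (0.78 ± 0.16). TRIM14 with H11 (-0.35 ± 0.13) and TRIM38 with IFNL3 (-0.64 ± 0.18) were the other members called. TRIM14 lost its call without any 1 of the 4 libraries (-0.42 to -0.25), by DESeq2 (-0.32) and with no low-count filter (-0.36). TRIM38 lost it without wild-type IFNL3 replicate 2 (-0.57) or optimized IFNL3 replicate 1 (-0.42), and TRIM28 with IFNL3 without wild-type replicate 1 (-0.40) or optimized replicate 2 (-0.36). TRIM26 was not called with either ligand (-0.52 ± 0.22 and -0.55 ± 0.21; adjusted p 0.051 and 0.054 in edgeR). It passed with no low-count filter (-0.54 and -0.55), in the IFNL3 groups fitted alone (-0.55), and with H11 without wild-type replicate 1 (-0.81).

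The response itself was then compared, so that untreated levels were taken into account. For H11, 3 of 8 members were called, where 36.9% of genes were, and for IFNL3, 2 of 8, where 18.4% were. The TRIM25 response was smaller in optimized cells for H11 (-1.25 ± 0.21; adjusted p 0.00019 in edgeR) and for IFNL3 (-1.23 ± 0.21; 0.00068). The TRIM38 response to IFNL3 was smaller too (-0.89 ± 0.27). For TRIM28 the response to H11 differed by -0.69 ± 0.17, from 0.53 ± 0.12 in wild-type cells to an uncalled -0.16 ± 0.12 in optimized cells. TRIM21 went the other way, with a larger response to H11 in optimized cells (0.77 ± 0.26; adjusted p 0.029 in edgeR). Both counts of members are close to the share of all genes called, and both contrasts share the untreated libraries. TRIM28 for IFNL3 (-0.43 ± 0.17) and TRIM5 for IFNL3 (-0.53 ± 0.20) were not called, and TRIM28 passed at -0.53 without untreated optimized replicate 1.

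The length trend touched these genotype results unevenly. The longest annotated transcript is 1924 nt for TRIM21, 5734 nt for TRIM25, 2960 nt for TRIM28 and 9413 nt for TRIM38, against a median of 3636 nt over genes tested. With the trend as an offset, the TRIM21 response difference for H11 went from 0.77 to 0.31 (adjusted p 0.41 in edgeR) and its level difference from 0.78 to 0.31 (adjusted p 0.12), so neither was called. The TRIM38 response difference for IFNL3 went from -0.89 to -0.57 (adjusted p 0.18), and its uncalled value for H11 changed sign, from -0.54 to 0.08. The TRIM14 level difference with H11 went to -0.19 (adjusted p 0.26), and that of TRIM38 with IFNL3 went from -0.64 to -0.30 (adjusted p 0.24 in edgeR), so neither was called. The TRIM21 level with IFNL3, uncalled between genotypes at -0.34 ± 0.16, passed at -0.61 with the offset (adjusted p 0.0088 in edgeR), lower in optimized cells. TRIM25 and TRIM28 stayed called, at -0.90 and -0.79 for the response to H11, and TRIM25 at -1.07 for that to IFNL3. With 1 library left out, the TRIM21 difference lost its call in 5 of 8 fits (0.64 to 0.79). These were the fits without wild-type untreated replicate 1, wild-type H11 replicate 1 or 2, optimized H11 replicate 1 or optimized untreated replicate 2. TRIM38 lost its call in 5 of 8 fits (-0.91 to -0.66): without wild-type untreated replicate 1 or 2, wild-type IFNL3 replicate 2, optimized IFNL3 replicate 1 or optimized untreated replicate 2.

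**Figure D3:**
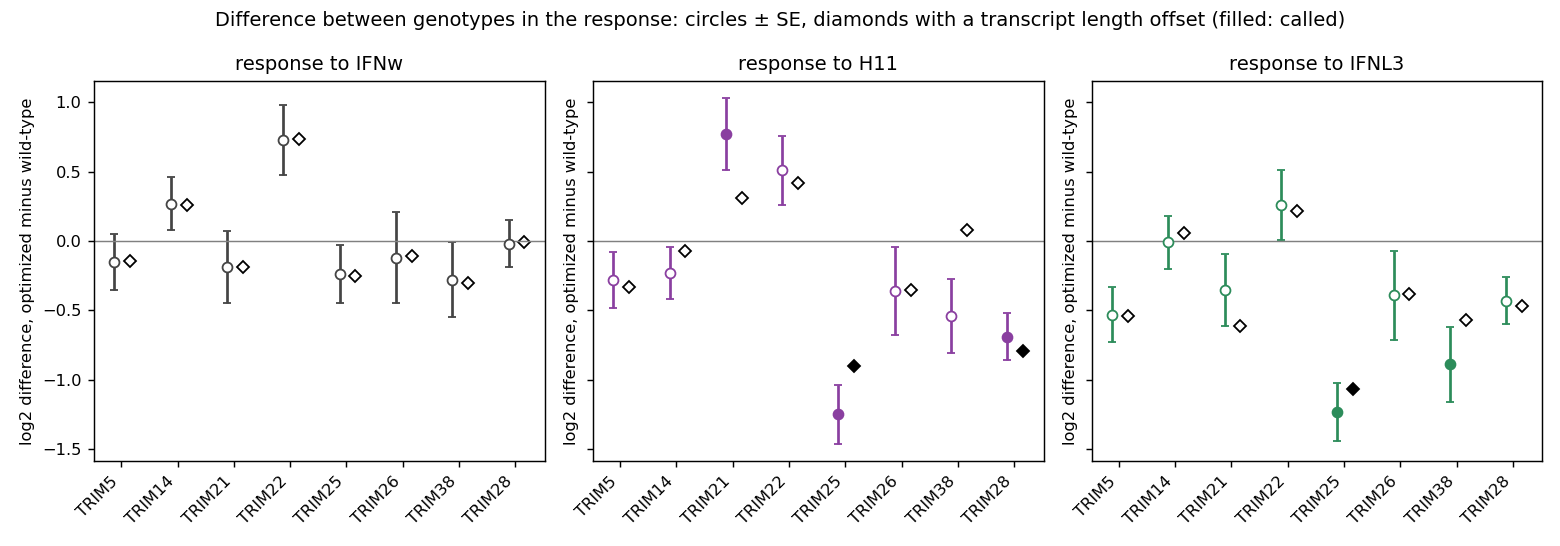
Difference in log2 response, optimized minus wild-type, for each TRIM gene and ligand; circles with SE bars are from the fit without an offset and diamonds from the fit with a transcript length offset, filled where called. TRIM25 is called in both fits for H11 and IFNL3 and TRIM28 in both for H11, whereas TRIM21 for H11 goes from 0.77 to 0.31 and TRIM38 for IFNL3 from -0.89 to -0.57.

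Ligands were also set against each other within a genotype at the one dose used, in 6 pairs. In wild-type cells no member was called between H11 and IFNL3. There 0 of 8 members and 0.0% of genes were called, with 0 members and 158 genes at an unadjusted p under 0.05 in edgeR and 0 genes by DESeq2. The difference was -0.27 for TRIM21 (95% interval -0.60 to 0.06) and 0.00 for TRIM25 (-0.30 to 0.29). IFNw differed from IFNL3 in 4 of 8 members, where 53.1% of genes differed, and H11 from IFNw in 4 of 8, where 52.2% did. With IFNw in place of IFNL3, TRIM25 was lower (-1.01 ± 0.15), TRIM28 lower (-0.83 ± 0.12), TRIM14 lower (-0.41 ± 0.13) and TRIM21 higher (0.67 ± 0.16). With H11 in place of IFNw the same 4 were called in the opposite sense, TRIM25 by 1.00 ± 0.15, TRIM28 by 0.78 ± 0.12, TRIM14 by 0.46 ± 0.13 and TRIM21 by -0.95 ± 0.16. These contrasts share the IFNw libraries. With the length offset TRIM21 was at 0.19 against IFNL3, and TRIM14 at -0.25 against IFNL3 and 0.30 against IFNw, none of them called. The other calls held with the offset: TRIM25 was at -0.65 and TRIM28 at -0.93 for IFNw against IFNL3, and for H11 against IFNw TRIM25 was at 0.64, TRIM28 at 0.88 and TRIM21 at -0.46. The TRIM14 call against IFNL3 was also lost without either IFNw replicate (-0.38 and -0.38) or IFNL3 replicate 2 (-0.37), and against IFNw without IFNw replicate 1 (0.44). TRIM26, uncalled between H11 and IFNw (0.36 ± 0.21), passed at 0.64 without H11 replicate 1.

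In optimized cells no member was called between H11 and IFNw, with 0 of 8 members and 0.0% of genes called (0 members and 279 genes at an unadjusted p under 0.05 in edgeR, and 0 genes by DESeq2). All 8 differences lay between -0.09 and 0.11 on the log2 scale, and the widest interval was that of TRIM26 (-0.37 to 0.59). Against IFNL3, TRIM21 was higher with IFNw (1.78-fold, 0.83 ± 0.16) and with H11 (1.80-fold, 0.84 ± 0.16). IFNw differed from IFNL3 in 2 of 8 members, where 19.1% of genes differed, and H11 from IFNL3 in 1 of 8, where 17.6% did. The second member called for IFNw was TRIM28 (-0.43 ± 0.12). That call was lost without IFNw replicate 2 (-0.28) or either IFNL3 replicate (-0.35 and -0.48). For TRIM25 the differences from IFNL3 were -0.02 ± 0.15 with each ligand. With the length offset TRIM38 passed as higher than with IFNL3 (0.62 with IFNw and 0.66 with H11). TRIM28 with H11 was uncalled at -0.32 ± 0.12 and passed with the compared groups alone, where TRIM22 also passed (0.35).

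By mean level, TRIM21 was ordered IFNw, then IFNL3 and H11 without a call between them, in wild-type cells, and IFNw and H11 without a call between them, then IFNL3, in optimized cells. TRIM25 was ordered H11 and IFNL3, then IFNw, then untreated in wild-type cells. In optimized cells its 3 treated groups had no call between them.

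Among the rest of the TRIM family, PML and TRIM56 rose in the wild-type cells given H11 or IFNL3, and other members rose or fell. Of 68 other TRIM-family targets, which include PML, MEFV, MID1 and MID2, 31 had enough reads to be tested. In wild-type cells 2 were called higher and 5 lower with IFNw, 10 higher and 2 lower with H11, and 10 higher and 1 lower with IFNL3. In optimized cells the counts were 1 higher and 7 lower with IFNw, 3 and 4 with H11, and 2 and 0 with IFNL3. The shares of all genes called higher were 16.6%, 18.2% and 18.7% in wild-type cells (IFNw, H11, IFNL3) and 17.5%, 17.2% and 7.26% in optimized cells. Those called lower were 14.8%, 20.6% and 21.1%, and 15.9%, 15.2% and 6.05%, in the same order. With the length offset the family counts became 2 and 3, 8 and 2, and 8 and 1 in wild-type cells, and 2 and 4, 3 and 3, and 3 and 0 in optimized cells. The median log2 fold change of the 31 lay between -0.19 and 0.16, near that of all genes. PML (TRIM19), the organizer of PML nuclear bodies, rose in all 6 responses. Its mean in wild-type cells was 19.8 ± 1.41 CPM (SD, n = 2) untreated, 67.4 ± 3.91 with IFNw, 152 ± 15.98 with H11 and 148 ± 2.96 with IFNL3. Optimized means were 22.3 ± 6.77, 69.3 ± 1.42, 65.6 ± 6.67 and 82.3 ± 4.17 CPM in that order. Like TRIM25, PML was highest in the wild-type groups with H11 and IFNL3, and its response in optimized cells was smaller for H11 (-1.41 ± 0.23) and IFNL3 (-1.04 ± 0.23), with -1.10 and -0.90 under the length offset, both still called. TRIM56, which aids antiviral signalling, rose in wild-type cells with H11 (2.14 ± 0.29) and IFNL3 (2.21 ± 0.29) but was uncalled with IFNw (0.25 ± 0.34). Its optimized values with H11 and IFNL3 were 1.27 ± 0.37 and 1.60 ± 0.35, both called, and the difference in response between genotypes was not called for either ligand (-0.87 ± 0.49 and -0.62 ± 0.48). The TRIM56 level under these ligands was lower in optimized cells (-1.62 ± 0.29 and -1.36 ± 0.27, with -0.93 and -0.99 under the length offset, all called). TRIM9, a brain-enriched member, fell with IFNw in both genotypes (-0.73 ± 0.16 and -1.04 ± 0.16) and with H11 in optimized cells (-1.09 ± 0.16). TRIM68, another member on chromosome 11, was not called in any response (0.02 to 0.34). TRIM16L rose from few reads in wild-type cells, at 0.512 ± 0.263 CPM untreated, 2.57 ± 0.808 with H11 and 4.16 ± 0.560 with IFNL3 (2.28 ± 0.62 and 2.97 ± 0.60 on the log2 scale, both called). It is a near-identical copy of TRIM16, so reads may be split between them. TRIM16 itself rose by 0.80 ± 0.24 and 1.04 ± 0.24 in wild-type cells, and the response difference was -1.37 ± 0.36 and -1.86 ± 0.36. In optimized cells its mean did not rise, at 12.8 ± 0.496 CPM untreated, 8.65 ± 0.629 with H11 and 7.28 ± 3.10 with IFNL3. MID2, a microtubule-binding member, fell with IFNw in wild-type (-0.98 ± 0.24) and optimized cells (-0.88 ± 0.24). The values of TRIM9, TRIM16L, TRIM16 and MID2 are without the length offset, under which fewer of the family were called lower with IFNw.

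**Figure D4:**
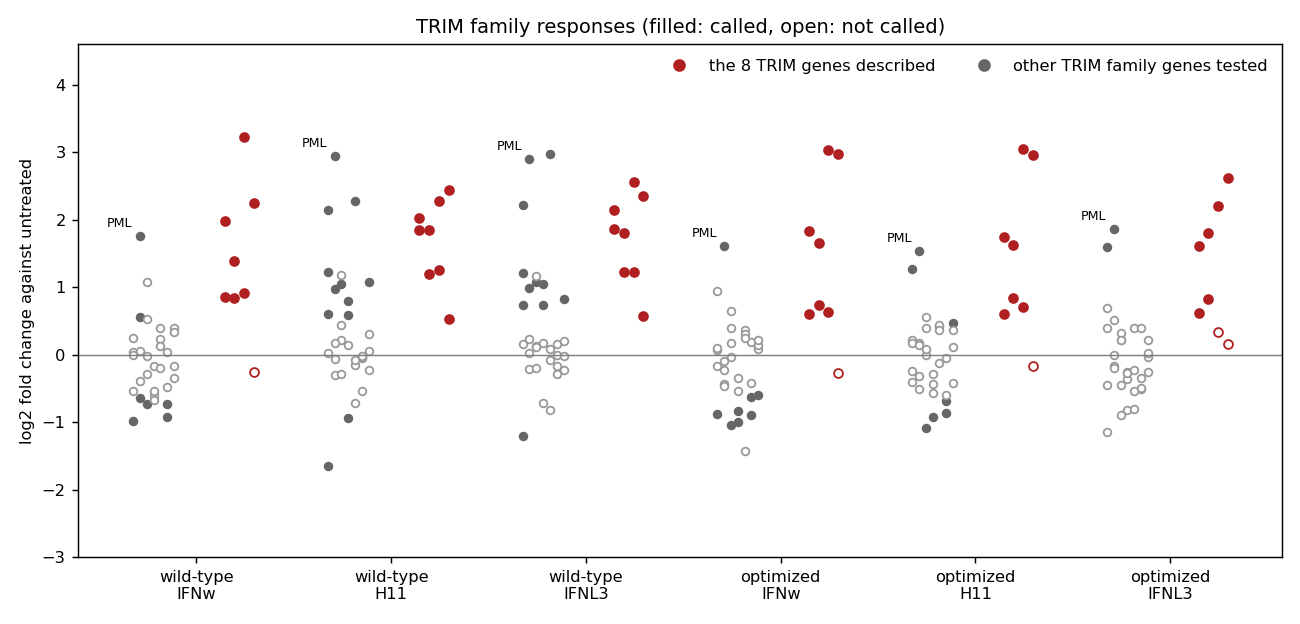
Log2 fold change against untreated cells (vertical axis) in the 6 ligand responses, for the 8 TRIM genes described (red) and the 31 other TRIM-family genes tested (grey, spread sideways for legibility); filled points were called. The red points of the 7 antiviral genes lie above 0 in each response, while the grey points centre near 0 and PML lies between 1.53 and 2.94.

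Genes of the RIG-I to IRF pathway, in which TRIM25, TRIM14, TRIM26 and TRIM38 act, included the RNA sensors, which rose, and other genes that fell. Of 22 tested among 27 listed, 5 were called higher and 4 lower in wild-type cells with IFNw, 7 and 3 with H11, and 7 and 3 with IFNL3. In optimized cells 6 and 4, 6 and 3, and 6 and 2 were called with the same ligands. Per direction, the shares of all genes called were 14.8% to 21.1% except with IFNL3 in optimized cells (7.26% higher and 6.05% lower). With the length offset the counts were 5 and 2, 7 and 3, and 7 and 3 in wild-type cells, and 6 and 2 for each ligand in optimized cells. The list median lay between 0.03 and 0.41. The sensor gene DDX58 (RIG-I) went from 16.9 ± 2.08 CPM to 221 ± 1.89 with IFNw, 437 ± 39.0 with H11 and 452 ± 17.9 with IFNL3 in wild-type cells (SD, n = 2). The optimized means went from 17.4 ± 3.80 CPM to 240 ± 23.1, 240 ± 19.9 and 305 ± 1.01. Its response to H11 was smaller in optimized cells (-0.89 ± 0.21), also with the length offset (-0.74). ZC3HAV1, the zinc finger antiviral protein for which TRIM25 is a cofactor, rose in all 6 responses, by 2.60 ± 0.19 and 2.54 ± 0.19 in wild-type cells with H11 and IFNL3 and by 0.55 ± 0.18 to 0.92 ± 0.18 elsewhere. Its response differed between genotypes by -2.05 ± 0.26 for H11 and -1.62 ± 0.25 for IFNL3, with -1.56 and -1.38 under the length offset, all called. IFIH1, encoding the sensor MDA5, rose by 5.85 to 6.56 in the 6 responses, and IRF7 by 4.37 to 5.12. DHX58, encoding the RIG-I-like receptor LGP2, rose in all 6 responses. Its wild-type means were 0.362 ± 0.0518 CPM untreated, 17.7 ± 1.19 with IFNw, 2.89 ± 0.342 with H11 and 2.86 ± 0.753 with IFNL3. In optimized cells it had no reads untreated and 18.7 ± 4.599, 18.98 ± 1.28 and 10.98 ± 0.557 CPM with the 3 ligands. RNF125, a ubiquitin ligase that marks RIG-I for degradation, fell with IFNw (-1.44 ± 0.35), H11 (-2.56 ± 0.37) and IFNL3 (-2.54 ± 0.37) in wild-type cells and with IFNw (-1.50 ± 0.35) and H11 (-1.92 ± 0.37) in optimized cells. Its value for IFNL3 there was -0.84 ± 0.33, uncalled, and the response to IFNL3 differed between genotypes (1.70 ± 0.50). IRF3, whose product TRIM26 turns over, rose in optimized cells (0.87 ± 0.18, 0.99 ± 0.18 and 0.61 ± 0.18 for IFNw, H11 and IFNL3) and was uncalled in wild-type cells (0.29 ± 0.18, -0.23 ± 0.18 and -0.08 ± 0.18), and its response difference was called for H11 (1.22 ± 0.26). MAVS fell with IFNw in both genotypes (-0.70 ± 0.18 and -0.71 ± 0.18), neither called with the length offset (-0.26 and -0.29). The values of RNF125 and IRF3 are without that offset.

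Of the ubiquitin enzymes used with or against TRIM ligases, UBE2L6 and UBE2E1 were among those that differed in response between genotypes, and UBA7 rose in each response. Of 17, all tested, 6 were called higher and 2 lower with IFNw in wild-type cells, 3 and 4 with H11, and 3 and 5 with IFNL3. In optimized cells the counts were 6 and 2, 6 and 1, and 2 and 0. The shares of all genes called were 14.8% to 21.1% per direction, and 7.26% higher and 6.05% lower with IFNL3 in optimized cells. With the length offset 1 in place of 2 was called lower in optimized cells with IFNw, 8 in place of 6 were called higher there with H11, and the other counts were the same. For the response difference between genotypes, 7 were called higher and 2 lower with H11, and 4 and 1 with IFNL3. Of all genes, 36.9% and 18.4% were called in either direction. With the offset the enzyme counts were 9 and 2, and 4 and 0. UBE2L6, the E2 enzyme for ISG15, had the widest contrast. Wild-type means were 24.6 ± 0.956 CPM untreated, 117 ± 9.74 with IFNw, 14.5 ± 1.35 with H11 and 16.7 ± 2.43 with IFNL3 (SD, n = 2). Optimized means were 25.6 ± 4.198, 107 ± 10.8, 113 ± 0.475 and 80.8 ± 3.85 CPM. The wild-type falls were -0.76 ± 0.16 and -0.56 ± 0.16, and the latter was not called with the length offset (-0.28). The response differed between genotypes by 2.91 ± 0.22 for H11 and 2.23 ± 0.22 for IFNL3, with 2.32 and 1.89 under the offset, all called. UBE2E1, an E2 enzyme shown to work with TRIM ligases, followed the same direction, with differences of 1.51 ± 0.20 and 0.97 ± 0.20 without the offset. UBA7, the E1 enzyme for ISG15, rose in all 6 responses, by 3.67 to 5.91.

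The corepressor partners of TRIM28 were tested as a list of 14. In wild-type cells 1 was called higher and 7 lower with IFNw, 3 and 0 with H11, and 3 and 0 with IFNL3. In optimized cells the counts were 1 and 4 with IFNw, 1 and 4 with H11, and 0 and 0 with IFNL3. The shares of all genes called lower were 14.8% and 15.9% with IFNw in wild-type and optimized cells and 15.2% with H11 in optimized cells, and those called higher were 18.2% and 18.7% with H11 and IFNL3 in wild-type cells. The median was -0.57 for wild-type cells with IFNw and 0.21 with H11, and -0.36 and 0.01 with the length offset. With that offset 3 in place of 7 were called lower in wild-type cells with IFNw, and 2 in place of 4 in optimized cells with either IFNw or H11. In wild-type cells 3 were then called higher and 1 lower with H11, and 2 and 1 with IFNL3. CHD3, a remodelling ATPase, fell with IFNw in wild-type cells (-0.92 ± 0.13) and rose with H11 (0.49 ± 0.13), and the rise was not called with the offset (0.27). TRIM28 itself was at -0.25 (uncalled) and 0.53 in those comparisons.

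Across the 16 libraries, each antiviral member was most like a small set of genes among 9872 with a mean of at least 5 CPM (Pearson's r of log2 CPM, given as a description, since libraries of 8 groups share ligands). For TRIM5 these were IFIT3, PNPT1 and IRF9 (r 0.986 to 0.988), and for TRIM22 IRF9, C19orf66 and IFIT3 (0.983 to 0.985). TRIM14 was most like DDX58, DDX60L and HELZ2 (0.986 to 0.988), and TRIM21 like IFIT5, IFIT1 and RSAD2 (0.978 to 0.986). Those are interferon-stimulated genes. TRIM25 was nearest to NFATC2IP, SNORA81 and WSB1 (0.957 to 0.960). TRIM26 was nearest to AMIGO3, REC8 and PML (0.933 to 0.936), and TRIM38 to SLC25A28, OGFR and RRN3P1 (0.941 to 0.954). Of these, PML rose with each ligand in both genotypes, as given above, and the responses of the other genes nearest to TRIM25, TRIM26 and TRIM38 are not given here. TRIM28 was nearest to HNRNPM, TARDBP and CDK12 (0.973 to 0.976). By r over the 8 group means, REC8 ranked 1, PML 14 and AMIGO3 50 for TRIM26. For TRIM28, HNRNPM ranked 1, CDK12 34 and TARDBP 64. Among the members, r was highest for TRIM14 with TRIM22 (0.97). It was 0.58 for TRIM21 with TRIM25, 0.69 for TRIM25 with TRIM28 and -0.10 for TRIM21 with TRIM28.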

How the data were processed

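Each deposited file holds raw counts, whole numbers of reads per target for a single library, per the file headers. Each member was counted at a single target with an identifier beginning AMPL, so its level rests on that target alone. Libraries were made with an Ion Torrent kit, per the labels' protocols. Submitters' processing notes name hg19. No aligner or counter is named in the sources used here, nor are target lengths, so levels were not compared between genes. Of 20812 targets a file, 10 spike-ins (at most 1 read) were left out, and 27 of 28 symbols held as dates were restored by Entrez identifier.

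The test was the quasi-likelihood test of edgeR 4.0.16 (R 4.3.3) after filterByExpr and TMM scaling, with 1 coefficient per group over 16 libraries (common dispersion 0.0176, or 13.3% as a coefficient of variation). Calls used a Benjamini-Hochberg adjusted p of 0.05 over 12704 genes in each of 19 comparisons. CPM are TMM-scaled, and intervals are at 95%. In no group did replicates agree within sampling noise (chi-square over degrees of freedom from 6.31 to 24.6). Alternatives were DESeq2 1.42.0, its size factors within edgeR, all genes unfiltered, compared groups alone, replicate number as a block, leaving out each library (the one left in its group takes the spread of the others), and a per-library spline offset (5 degrees of freedom) on the log of the longest GENCODE 29 transcript, known for 12131 genes. A fit leaving out wild-type cells given H11 or IFNL3 was added after seeing the data. Scripts were tested on simulated counts with 200 changed genes.

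Members, lists, motifs and rules were chosen with earlier results of these data known. All members are named. From each list, a rule took up to 4 called genes with the largest changes and up to 2 uncalled ones per comparison. The text gives some of those, not all, and a gene taken for one comparison may be given for others. TICAM1 matched no target. A list of reference interferon-stimulated genes and 1 blood marker are not reported here.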

Additional observations from a re-analysis of the deposited data

Results flagged for a closer look

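The response of 4 members differed between genotypes in a test of the difference itself (optimized minus wild-type, edgeR quasi-likelihood with Benjamini-Hochberg adjustment). Over all genes tested, that difference was called for 36.9% with H11 and for 18.4% with IFNL3. For H11 the difference was 0.77 for TRIM21, -1.25 for TRIM25 and -0.69 for TRIM28 on the log2 scale. For IFNL3 it was -1.23 for TRIM25 and -0.89 for TRIM38. The transcript length trend moves with the groups compared here. Its rho was 0.369 to 0.405 in wild-type cells given H11 or IFNL3. In optimized cells it was -0.397 and -0.409 with H11, and 0.083 and 0.039 with IFNL3. Untreated libraries lay between 0.079 and 0.159. TRIM25 and the TRIM28 difference for H11 were called with that trend as an offset, and TRIM21 and TRIM38 were not.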

How the results depend on the processing

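No called member value changed direction under any alternative tried. Of 1696 alternative values, 1624 kept their side of the threshold, 55 lost a call and 17 gained one, and 74 uncalled values changed sign. DESeq2 kept 151 of 152 values and its size factors in edgeR all 152. Leaving out the 4 libraries of wild-type cells given H11 or IFNL3 kept all 80. Those 80 values are from comparisons that do not use these libraries. The genotype and response differences with H11 or IFNL3 could not be tested in that fit. With the compared groups alone, the members called were 4 in optimized cells with IFNw, 4 with H11, 1 for the response difference to IFNL3 and 3 for optimized H11 against IFNL3. With the length offset they were 2 between genotypes with H11, 1 for the response difference to IFNL3, 2 for wild-type IFNw against IFNL3 and 2 for optimized H11 against IFNL3. Counts with smaller relative moves are not listed. Among those, with the offset TRIM21 lost its call for the response difference to H11 (0.31), and TRIM38 gained one for optimized IFNw against IFNL3 (0.62). With 1 library left out, 1 to 3 members were called for the response difference to IFNL3 and 1 to 2 for optimized IFNw against IFNL3. With replicate number as a block (replicate block), 2 members were called for optimized H11 against IFNL3 and 4 member values gained a call, with none lost: TRIM26 between genotypes with H11 (-0.51) and IFNL3 (-0.56), the TRIM5 response difference to IFNL3 (-0.52) and TRIM28 for optimized H11 against IFNL3 (-0.32). Deviations of same-numbered libraries correlated positively (r 0.085 to 0.212 over 28 pairs of groups, above 0.1 in 27). The criterion for pairing was over 0.1 in every pair, and the labels tie numbers to no shared origin, so the block was kept as an alternative. With 2 libraries a group, the errors rest on a spread shared across genes and groups, and TRIM26 had the largest SE of the members in each ligand response (0.22 to 0.24).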
